A study of Mus musculus with 4 samples.

Results

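The claudins *Cldn1*, *Cldn2*, *Cldn3*, *Cldn4*, *Cldn7*, *Cldn8*, *Cldn12*, *Cldn15* and *Cldn23* and occludin (*Ocln*) form a set of 10 genes among the 16015 genes listed for these libraries, and each was found by its gene symbol. The members were chosen by their normalized counts in these same control and *Bmal1* cKO libraries, so their differences are described here with no test. Bulk RNA was sequenced from colonic epithelial cells of 2 control mice and 2 *Bmal1* cKO mice, taken on day 7 of dextran sulfate sodium (DSS) colitis, in which a polysaccharide at 3% in the drinking water for 5 days injures the colonic lining. The control mice, labelled WT, carried *Bmal1* fl/fl alleles without Cre according to the study's methods. The cKO mice carried the same alleles with Villin-CreERT2, a tamoxifen-induced Cre under a promoter of the intestinal epithelium. Mice were on a C57BL/6 background, littermates aged 2 to 4 months, and whether the controls also received tamoxifen is not stated in the sources used here. No mouse without DSS was compared here. Each library is 1 mouse, by the labels and the study's account of 2 mice per group.

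Tight junctions seal the space between neighbouring epithelial cells just below the luminal surface. Claudins are membrane proteins that polymerise into the strands of the junction, and their extracellular loops set which ions pass: some claudins close the path between cells, while others line pores for cations and water. Occludin is a MARVEL family protein that is built into the same strands and helps to organise them, and cytoplasmic ZO proteins tie both to actin. In the colon, claudins are distributed unevenly between the crypt base, where cells divide, and the surface.

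The reads on listed genes numbered 10312791 to 14156639 per library. All 10 epithelial marker genes, *Epcam*, *Krt8* and *Cdh1* among them, were detected in each library, and their summed normalized count (reads divided by the size factor of the library) was 119255 and 136884 in control mice against 117016 and 123888 in *Bmal1* cKO mice. *Krt8* and *Krt19* made up much of these sums, and by limma 1 of the 10 genes rose and 4 fell, with a median log2 fold change of -0.44, where 29.0% and 27.7% of all tested genes rose and fell (the intestinal transcription factor gene *Cdx2*, for example, was at -1.47). After correction for GC content and gene length, described below, 4 of them rose and 0 fell, where 17.8% and 18.0% of all genes did. The 1 rise before the correction lost its call without either cKO mouse or control mouse 1. Fewer of the 10 genes fell without cKO mouse 2, and more without control mouse 1. *Arntl*, the gene symbol of *Bmal1*, had 358 and 342 normalized counts in control mice against 341 and 289 in cKO mice, with a log2 fold change of -0.16 (SE 0.14, limma adjusted p = 0.389). These values are sums over the whole gene and do not show which exons the reads came from. Directions below are those of the libraries labelled *Bmal1* cKO against those labelled control. Markers of other cells were higher in the control libraries: 10 of 14 leukocyte genes, 8 of 10 fibroblast and muscle genes, 8 of 8 endothelial and blood genes and 6 of 8 goblet cell genes fell in cKO by limma, and none of them rose. Without *Bmal1* cKO mouse 1 or 2, fewer genes of each of these lists passed the threshold as falling, and so did fewer of all tested genes. The summed leukocyte markers came to 12351 and 24628 against 2681 and 2551, and the fibroblast and muscle markers to 14699 and 3393 against 456 and 485. The goblet markers summed to 239071 and 486327 against 73550 and 104793. The endothelial and blood markers summed to 2812 and 2135 against 46.3 and 60.8, with *Emcn* at 0 in both cKO libraries. The part of these cells in the differences of the claudins was not tested, and in bulk RNA fewer cells of a type and less RNA per cell cannot be told apart.

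The junctional makeup differed between the groups in both directions. *Cldn8*, *Cldn12*, *Cldn2* and *Ocln* were higher in both *Bmal1* cKO mice than in both control mice, whereas *Cldn1*, *Cldn3*, *Cldn4*, *Cldn7*, *Cldn15* and *Cldn23* were lower in both. Thus 4 members lay above and 6 below without overlap, where 40.3% and 41.7% of the 13983 tested genes did so. These values chose the members, so nothing is read from the counts. All 10 members passed the filter of a mean normalized count of at least 10.

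**Figure D1:**
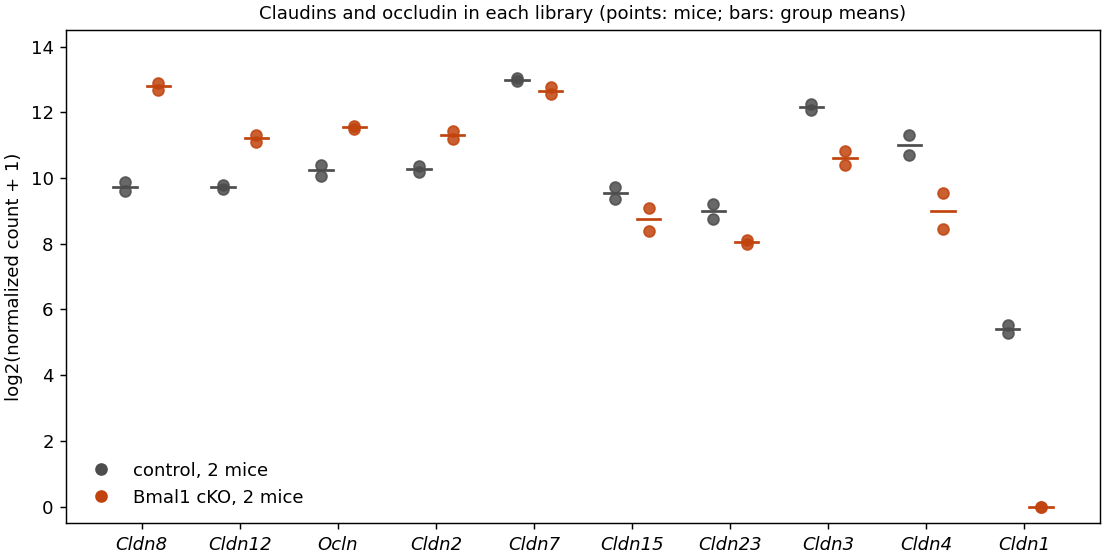
Level of each member in the 4 libraries, as log2(normalized count + 1), with a point for each mouse and a bar at the mean of each group. *Cldn8* is a mid-range claudin in the control mice and stands at the level of *Cldn7* in the *Bmal1* cKO mice, the points of *Cldn4* and *Cldn15* are spread widest, and *Cldn1* has 0 reads in both *Bmal1* cKO libraries.

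Among the barrier-forming claudins, *Cldn8* (ENSMUSG00000050520, GRCm38 chromosome 16, 88560828 to 88563183, minus strand) stood furthest above the control. *Cldn8* is abundant in the distal colon, where it limits the leak of sodium back between the cells. It had 945 and 773 normalized counts in control mice against 6608 and 7573 in *Bmal1* cKO mice. The means were 859 ± 121 and 7091 ± 683 (SD, n = 2 each), an 8.26-fold difference and a log2 fold change of 3.05 (SE 0.13). The lower cKO mouse was 7.00-fold above the higher control mouse, while the mice of a group differed by 1.22-fold among controls and 1.15-fold among cKO.

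*Cldn3* and *Cldn4* seal the path between cells and are the receptors of *Clostridium perfringens* enterotoxin, and both were lower in cKO, although the direction of *Cldn3* turned to higher (0.29) with the correction for GC content and length described below. Their genes are neighbours on chromosome 5 of GRCm38, on opposite strands with starts 39.28 kb apart (*Cldn3*, 134986214 to 134987472, plus strand, and *Cldn4*, 134945119 to 134946934, minus strand). *Cldn3* had 4267 and 4844 normalized counts in control mice against 1798 and 1334 in cKO mice. Its means of 4556 ± 408 and 1566 ± 328 gave a 2.91-fold lower level in cKO and a log2 fold change of -1.55 (SE 0.16). *Cldn4* had 1667 and 2527 in control mice against 744 and 349 in cKO mice. The *Cldn4* means of 2097 ± 608 and 546 ± 279 were 3.84-fold apart, with a log2 fold change of -2.01 (SE 0.39). *Cldn4* was the less even of the pair, with a 1.52-fold difference between the control mice and a 2.13-fold difference between the cKO mice, yet the lower control mouse remained 2.24-fold above the higher cKO mouse. A stretch of 40 exonic bases of *Cldn3*, 3.18% of its exon length, overlaps an antisense gene, *Wbscr25*, and whether the counting used strand is not given in the sources used here.

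The sequences just upstream of this neighbouring pair are shown so that the start of each can be read beside the other. Both genes were lower as deposited, and with the GC and length correction only *Cldn4* was. They are the 250 bases before the RefSeq transcript start on GRCm38.p6, for these 2 genes outside any annotated gene, written 5′ to 3′ on the strand of the gene. Capitals mark the letters TGACTCA or TGAGTCA, the site of the AP-1 factors FOS and JUN, which are each other's reverse complement, so both strands are covered. The windows are chr5:134946935-134947184 on the minus strand for *Cldn4* and chr5:134985964-134986213 on the plus strand for *Cldn3*.
Cldn4: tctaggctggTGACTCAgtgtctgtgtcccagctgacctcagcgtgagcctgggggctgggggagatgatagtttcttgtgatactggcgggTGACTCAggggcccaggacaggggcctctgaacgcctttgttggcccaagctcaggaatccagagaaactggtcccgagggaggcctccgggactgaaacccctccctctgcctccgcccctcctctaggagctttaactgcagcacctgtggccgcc
Cldn3: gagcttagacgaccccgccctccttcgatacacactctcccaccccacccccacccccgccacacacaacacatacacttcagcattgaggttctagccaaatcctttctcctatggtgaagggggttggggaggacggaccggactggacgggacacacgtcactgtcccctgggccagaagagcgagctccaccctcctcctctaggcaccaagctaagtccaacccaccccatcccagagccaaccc
The *Cldn4* window holds the AP-1 letters at 240 and at 158 bases before the start, the *Cldn3* window does not hold them, and the window of *Cldn15*, which lies inside the annotated *Cldn15* gene because that starts further upstream, holds them at 214 bases. Of 32851 windows of the same length, 4.46% hold these letters at least once and 0.167% hold them 2 times or more. The E-box letters CACGTG, a palindrome that the BMAL1 and CLOCK pair is known to bind, are in 6.02% of all windows and in none of the 12 windows found for 8 of the members. Windows of *Cldn8* and *Cldn23* were not used here. The motifs were picked with the expression values already known, the matches do not overlap, and a match is a description of the sequence only.

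*Cldn7*, a claudin that binds EPCAM and also lies along the lateral membrane, was the most abundant member of both groups by mean level per kilobase. It had 7906 and 8421 normalized counts in control mice against 6961 and 5973 in cKO mice, a log2 fold change of -0.34 (SE 0.12). The lower control mouse was only 1.14-fold above the higher cKO mouse, and the direction turned to higher (0.57) with the GC and length correction described below. *Cldn23*, a claudin of differentiated colonocytes, had 435 and 591 in control mice against 279 and 254 in cKO mice, with means 1.93-fold apart and a log2 fold change of -0.93 (SE 0.18).

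*Cldn1*, a sealing claudin best known for the barrier of the skin, was scarce. It had 44.8 and 38.1 normalized counts in control mice, from 53 and 45 reads, and no read in either cKO mouse. Against a floor of 3 reads per library, the mean of the control mice was at least 11.6-fold higher, and the lower of the control mice at least 9.40-fold higher. The floor covers counting error only, since reads were not counted by molecule.

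Among the pore-forming claudins the directions were split. *Cldn2* (chromosome X, 139800828 to 139811386) forms a channel for sodium and water that is typical of leaky epithelia and of crypts. It had 1168 and 1306 normalized counts in control mice against 2323 and 2736 in cKO mice, means 2.04-fold apart and a log2 fold change of 1.03 (SE 0.12). *Cldn12* (chromosome 5, 5489537 to 5514958), which has been linked with *Cldn2* to the passage of calcium, had 811 and 886 in control mice against 2200 and 2536 in cKO mice, a log2 fold change of 1.48 (SE 0.11). Both genes were thus higher in every cKO mouse, and the lower cKO mouse stood 1.78-fold above the higher control mouse for *Cldn2* and 2.48-fold for *Cldn12*.

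*Cldn15*, the other cation pore of the set and a major claudin of the small intestine, went the other way. It had 656 and 843 normalized counts in control mice against 335 and 545 in cKO mice, a log2 fold change of -0.80 (SE 0.26). The cKO mice differed from each other by 1.62-fold and the groups were separated by only 1.21-fold. The ratio of *Cldn2* to *Cldn15* per kilobase was 1.14 and 0.990 in control mice against 4.42 and 3.21 in cKO mice, and with the GC and length correction 1.44 and 1.25 against 3.48 and 2.51.

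*Ocln* (chromosome 13, 100496507 to 100552718) was higher, and close between the cKO mice (1.06-fold) but less so between the control mice (1.26-fold). It had 1070 and 1349 normalized counts in control mice against 2913 and 3093 in cKO mice, means of 1210 ± 197 and 3003 ± 127 and a log2 fold change of 1.32 (SE 0.13). Its level per kilobase was 0.707 and 0.897 times that of *Tjp1*, which encodes the scaffold ZO-1 that occludin binds, in control mice, against 1.83 and 2.02 times in cKO mice. With the GC and length correction the ratio was 0.812 and 1.06 against 1.57 and 1.73.

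Levels of different genes were set side by side as normalized counts per kilobase of exon. The 9 claudins together came to 9863 and 11217 per kilobase in control mice against 9743 and 9349 in cKO mice, a ratio of cKO to control means of 0.906. With the correction for GC content and length described below, the sum came to 7072 and 7906 against 11540 and 10554, a ratio of 1.48, so the order of the groups in the sum turned with the correction. *Cldn8* made up 4.06% and 2.93% of the sum in control mice, against 28.8% and 34.4% in cKO mice. *Cldn3* made up 34.4% and 34.3% against 14.7% and 11.3%. *Cldn4* contributed 9.31% and 12.4% against 4.20% and 2.05%. The share of *Cldn7* was 41.1% and 38.5% in control mice, against 36.7% and 32.8% in cKO mice. The shares of *Cldn2* (3.56% and 3.50% against 7.17% and 8.80%) and of *Cldn12* (1.94% and 1.87% against 5.34% and 6.42%) were higher in cKO. They are shares of a length-scaled sum, so no binomial interval was given.

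**Figure D2:**
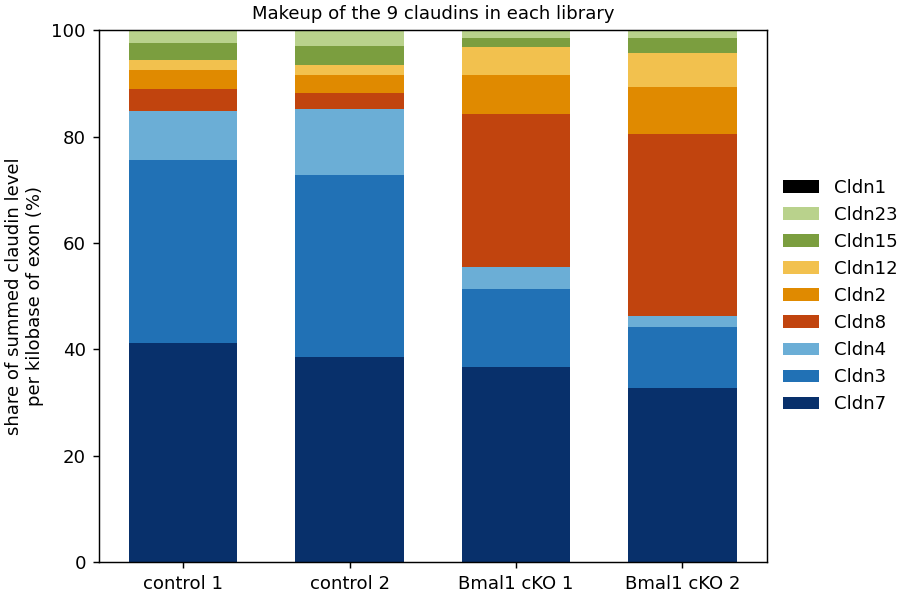
Share of each of the 9 claudins in their summed normalized count per kilobase of exon, in percent, with a stacked bar for each library. *Cldn7*, *Cldn3* and *Cldn4* fill most of both control bars, and in the *Bmal1* cKO bars *Cldn8* takes 28.8% and 34.4% while *Cldn3* takes 14.7% and 11.3%.

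In the order of levels per kilobase, *Cldn7*, *Cldn3* and *Cldn4* led in the control mice with ranges that did not overlap. Below them, *Cldn2*, *Cldn8*, *Cldn15*, *Ocln* and *Cldn23* overlapped each with its neighbour, and *Cldn12* and *Cldn1* followed apart. In the cKO mice *Cldn7* and *Cldn8* overlapped at the top, with means of 3320 and 3010 per kilobase, and *Cldn3* came next with 1244. With the GC and length correction *Cldn7* stood alone at the top of the cKO mice (4554), and *Cldn3* (2332) and *Cldn8* (2151) followed and overlapped, with a ratio of *Cldn8* to *Cldn7* of 0.421 and 0.531 in place of 0.785 and 1.05. As deposited, *Cldn2* and *Ocln* came after *Cldn3* and overlapped, then *Cldn12* stood apart, *Cldn4* and *Cldn15* overlapped, and *Cldn23* and *Cldn1* were last. With the correction *Cldn2* (664 and 772 in cKO mice) and *Ocln* (516 and 543) did not overlap. *Cldn12* (425 and 483) then lay within the range of *Cldn4* (556 and 263). The ratio of *Cldn8* to *Cldn3* was 0.118 and 0.0853 in control mice against 1.96 and 3.03 in cKO mice, and with the GC and length correction 0.316 and 0.229 against 0.789 and 1.09. The ratio of *Cldn3* to its neighbour *Cldn4*, at 3.69 and 2.77 against 3.49 and 5.52, overlapped between the groups as deposited and did not with the correction (2.63 and 1.98 against 4.67 and 7.86).

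The log2 fold change followed the GC content of the genes, which matters for these members since they span 39.0% to 62.7% GC. Over 13975 tested genes Spearman's rho was -0.61, a description over genes that share the same 4 libraries, and the median log2 fold change went from 1.13 in the tenth of genes with the lowest GC content to -1.35 in the tenth with the highest. The class median was 1.13 for *Cldn8* (40.6% GC), against its own 3.05, and -0.82 for *Cldn4* (56.8% GC), against -2.01. For *Cldn3* (62.7% GC) it was -1.35, close to its own -1.55. *Cldn8*, *Cldn12*, *Cldn2*, *Ocln* and *Cldn7* lay above the upper quartile of genes of like GC content, *Cldn4* and *Cldn1* lay below the lower quartile, and *Cldn3*, *Cldn15* and *Cldn23* lay between the quartiles.

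**Figure D3:**
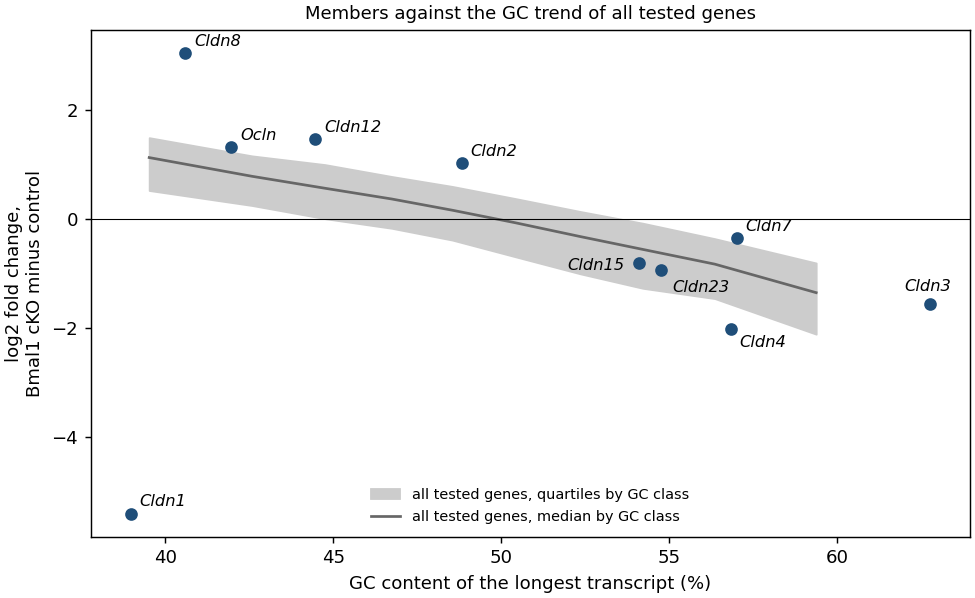
Log2 fold change of each member, *Bmal1* cKO minus control, against the GC content of its longest transcript in percent, over the median (line) and quartiles (grey) of all tested genes in 10 classes of GC content. *Cldn8* lies far above and *Cldn4* below the band, *Cldn15* and *Cldn23* lie inside it, *Cldn3* lies to the right of the band's end but within the quartiles of the last class, and the fitted value of *Cldn1* depends on the pseudocount because both cKO libraries had 0 reads.

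When each library was corrected for GC content and exon length by loess, *Cldn8* remained higher with a log2 fold change of 2.08, followed by *Cldn12* (0.87), *Cldn2* (0.86) and *Ocln* (0.47). *Cldn4* remained lower at -1.12 and *Cldn23* at -0.31, while *Cldn15* (-0.27) overlapped between the groups. *Cldn3* and *Cldn7* turned to higher in cKO, at 0.29 and 0.57, and both cKO libraries then lay above both control libraries. The difference in the share of *Cldn8*, 28.1 percentage points as deposited, was 12.7 with the correction, and that of *Cldn3* was -4.25 in place of -21.3. For *Cldn2* and *Cldn12* it was 1.28 and 0.82 points in place of 4.45 and 3.97. After the correction 6 members lay above and 3 below without overlap, where 36.4% and 37.8% of 13975 genes did so. The part of GC content in the differences was not tested.

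**Figure D4:**
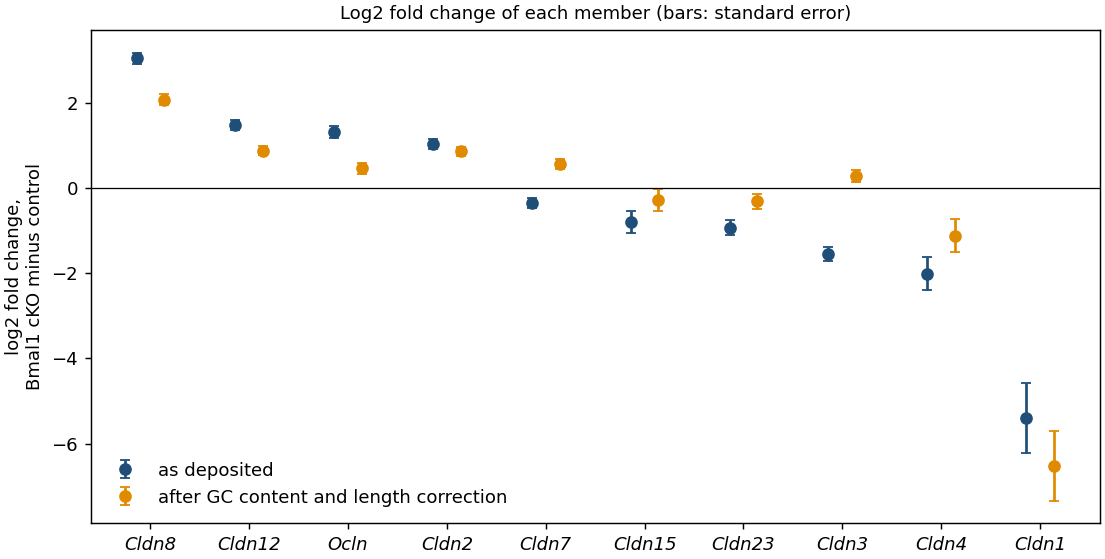
Log2 fold change of each member, *Bmal1* cKO minus control, with its standard error, as deposited (blue) and after correction for GC content and exon length (orange), 2 mice per group. *Cldn8*, *Cldn12*, *Ocln* and *Cldn2* stay above 0 and *Cldn4* and *Cldn1* well below it in both, whereas *Cldn3* moves from -1.55 to 0.29 and *Cldn7* from -0.34 to 0.57.

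Other tight junction genes, listed by their role, were tested in the same fit. Of 68 genes, 55 were listed and 51 were tested, and 10 rose and 19 fell in cKO (19.6% and 37.3%, beside 29.0% and 27.7% of all tested genes), with a median log2 fold change of -0.31 against -0.04 over all tested genes. Among scaffold and polarity genes 4 of 21 rose and 6 fell, and among signalling genes 2 of 8 rose and 5 fell. With the correction for GC content and length these became 3 and 3 of the scaffold and polarity genes and 1 and 1 of the signalling genes. Of the 4 tested genes of tricellular contacts and the MARVEL family, *Marveld2* and *Marveld3* rose and none fell, although *Marveld3* lost its call without cKO mouse 2 or either control mouse and under library total scaling. These names were taken after their values were seen. Among adhesion molecules of the JAM and immunoglobulin class 1 of 6 rose and 4 fell. Of the 4, only *F11r* kept its call without either cKO mouse. *Esam* (125 and 32.2 normalized counts against 2.06 and 4.06) and *Jam2* (98.0 and 46.6 against 10.3 and 9.46) were named after their values were seen. The endothelial marker *Cdh5* was at 259 and 58.4 against 6.17 and 10.8, and the part of endothelial cells in these falls was not tested. With the correction for GC content and length 10 partner genes rose and 10 fell (19.6% and 19.6%, beside 17.8% and 18.0% of all genes). The rising genes were not all the same. *Mpp5*, *Prkci* and *Rock2* lost their call, while *Tjp3*, *Ildr1* and *Spint1* gained one as higher. Without either cKO mouse or control mouse 1, fewer partner genes were called as falling, scaffold and signalling genes among them. Fewer of all tested genes were then called as falling too.

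**Figure D5:**
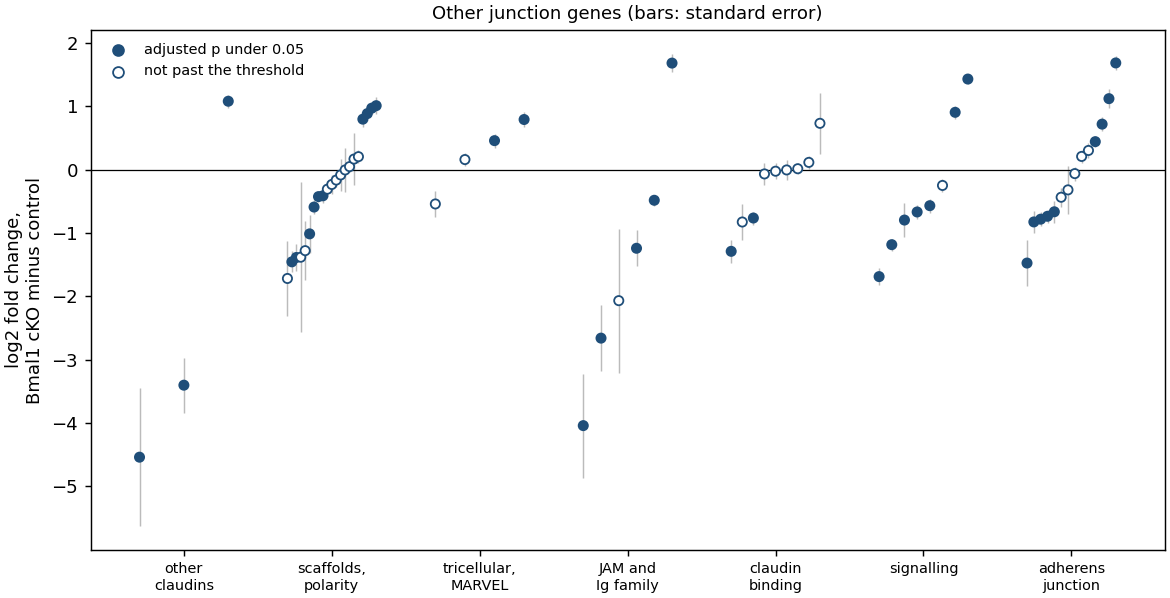
Log2 fold change, *Bmal1* cKO minus control, of the tested tight junction partner genes and adherens junction genes by role, with standard errors from limma and filled points for an adjusted p under 0.05. Genes above and below 0 appear in each class, and the lowest points are *Cldn5* among the other claudins and *Esam* in the JAM and immunoglobulin class.

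The scaffold genes *Tjp1* and *Tjp3*, whose products tie the strands to actin, were not past the threshold. *Tjp1* (ZO-1) had 2801 and 2783 normalized counts in control mice against 2941 and 2833 in cKO mice, a log2 fold change of 0.05 (SE 0.09, limma adjusted p = 0.648). *Tjp3* (ZO-3) had a log2 fold change of -0.31 (SE 0.13, limma adjusted p = 0.0949), and after the GC correction it was at 1.12 and past the threshold as higher, while *Tjp1* was then at -0.36 and past it as lower. Thus the signs and calls of both genes varied with the correction.

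At contacts where 3 cells meet, *Marveld2* (tricellulin, a relative of occludin) rose by 0.79 on the log2 scale (SE 0.12, limma adjusted p = 0.00362), and *Lsr* (angulin-1) had a log2 fold change of -0.54 (SE 0.21, limma adjusted p = 0.0763). Without cKO mouse 1 *Lsr* passed the threshold as lower, as did *Tjp3*, and both did so under library total scaling. With the GC correction *Lsr* turned to 0.57, with both cKO libraries above both control libraries and no call. *F11r* (JAM-A) fell on the log2 scale by 0.48 (SE 0.09, limma adjusted p = 0.00626) and *Clmp*, an adhesion molecule of the same family, by 1.24 (SE 0.28, limma adjusted p = 0.0145), although *Clmp* lost its call without either cKO mouse or control mouse 1. *Cxadr*, an adhesion receptor of tight junctions, rose by 1.68 on the log2 scale (SE 0.15, limma adjusted p = 7.44e-04), from 1756 and 2138 normalized counts to 5668 and 6827, and by 0.78 after the GC correction.

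Of 9 tested genes whose products bind or process claudins, 2 fell and none rose (22.2% and 0%, beside 27.7% and 29.0% of all tested genes), and with the GC correction 1 rose and 1 fell. *Epcam*, the partner of claudin-7, had 17455 and 21772 normalized counts against 18588 and 20320, a log2 fold change of -0.0044 (SE 0.16, limma adjusted p = 0.984). *St14*, the protease matriptase that cleaves EPCAM, fell by 0.76 on the log2 scale (SE 0.10, limma adjusted p = 0.00250), and the kinase gene *Wnk4* was at -1.29 (SE 0.18, limma adjusted p = 0.00281), the latter no longer past the threshold after the GC correction (-0.12). The actin regulators *Rock1* and *Vasp* moved apart, *Rock1* rising on the log2 scale by 1.43 (SE 0.08, limma adjusted p = 5.33e-04) and *Vasp* falling by 1.69 (SE 0.14, limma adjusted p = 6.56e-04). With the GC correction *Rock1* was at 0.37 and *Vasp* at -0.66, both still past the threshold. The polarity genes *Pard6b* and *Crb3* fell by 1.46 and 1.39 on the log2 scale, with corrected values of -0.99 and -0.33, and *Crb3* was not past the threshold after the correction.

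Of the other claudins, 3 were tested. *Cldn5*, the claudin of endothelium, had 70.1 and 14.4 normalized counts in control mice against 1.03 and 0 in cKO mice, and is itself 1 of the 8 endothelial and blood markers summed above. It was past the threshold as lower (limma adjusted p = 0.0173) but not without either cKO mouse or after the GC correction. *Cldn14*, named here after its values were seen, fell from 110 and 87.2 normalized counts to 10.3 and 6.76. *Cldnd1*, a claudin domain protein, rose by 1.08 on the log2 scale (SE 0.10, limma adjusted p = 9.08e-04), and by 0.49 after the GC correction.

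In the adherens junction, which lies beneath the tight junction, 4 of 14 genes rose and 5 fell (28.6% and 35.7%, beside 29.0% and 27.7% of all tested genes), with a median log2 fold change of -0.19. *Nectin3* rose on the log2 scale by 1.68 (SE 0.11, limma adjusted p = 5.33e-04) and *Cdh17*, an intestinal cadherin, by 1.12 (SE 0.15, limma adjusted p = 0.00227). Their corrected values were 1.16 and 0.57, and *Cdh17* was not past the threshold with the correction and the replicate block together. *Cdh1* (E-cadherin) had 15052 and 18761 normalized counts in control mice against 12118 and 12745 in cKO mice, a log2 fold change of -0.44 (SE 0.15, limma adjusted p = 0.0530), which passed the threshold by edgeR and DESeq2, under TMM or library total scaling, with a mean of at least 50 and without control mouse 1. With the GC correction 4 adherens junction genes rose and 0 fell, where 17.8% and 18.0% of all genes did so. They were not the same 4, since *Afdn* lost its call and *Jup* turned from a called fall (-0.74) to a called rise (0.37). These 2 genes were named after their values were seen. Without cKO mouse 1 or 2, fewer adherens junction genes rose and fewer fell, and without control mouse 2 fewer fell. The same held for all tested genes.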

How the data were processed

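RNA sequencing (mRNA libraries, paired-end reads of colonic crypt cells released with EDTA and scraping) of 2 control and 2 *Bmal1* cKO mice was used. The authors aligned reads to GRCm38 with STAR and normalized them with DESeq2. The read counter and annotation are not given in the sources used here, and the labels and the paper name different library kits. The authors deposited a signal per library, the gene count divided by a size factor. In each library 100% of the values were whole reads within 0.1 read. The deposited fold changes, standard errors, statistics and p-values of the authors' comparison, and their pooled mean, were not used. The study gives 2 mice per group, so p-values measure the spread between these 4 mice.

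Values were taken to log2(value + 1), which understates changes of low genes, limited to 13983 genes averaging at least 10, and compared with limma 3.58.1 (R 4.3.3, mean-variance trend, two-sided, Benjamini-Hochberg over all tested genes, threshold 0.05). Levels per kilobase use all exons of a gene. The scripts were tested on simulated data. The members, lists and tests were chosen with earlier results of these data known. Named genes were the 10 members, *Arntl*, junction genes named whatever their p (*Tjp1*, *Tjp3*, *Marveld2*, *Lsr*, *F11r*, *Epcam*, *St14*, *Cdh1* and *Cldn5*, and 1 that is not reported here) and, among partner and adherens genes with a mean of at least 100 and no overlap, the 5 largest rises and the 5 largest falls past the threshold. Alternatives were edgeR 4.0.16 and DESeq2 1.42.0 on the recovered reads, other pseudocounts, filters and scalings, a loess correction (span 0.3) for GC content and length, a replicate block and leaving out each mouse.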

Additional observations from a re-analysis of the deposited data

How the results depend on the processing

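No member's groups overlapped as deposited, so leaving out a mouse or changing the pseudocount could not turn a direction. The direction of the members' log2 fold changes was kept in 108 of 110 values, over 11 alternatives that include these. The exceptions were *Cldn3* (0.29) and *Cldn7* (0.57) under the GC content and length correction, which also turned the difference in the share of *Cldn7* to 0.23 percentage points and left 3 members below without overlap, where 37.8% of all genes were. The correction, and the replicate block with the correction, gave 10 and 10 falling partner genes, 0 and 0 falling adherens junction genes, 2487 and 2139 rising genes and 2519 and 2182 falling genes in all, against 4059 and 3871. Leaving out a mouse, which leaves a lone library assumed to vary like the other group, gave 10 to 18 falling partner genes, 2 to 4 rising and 2 to 5 falling adherens junction genes, and 2654 to 3154 rising and 2205 to 2852 falling genes. The lowest of the last pair came without *Bmal1* cKO mouse 2, and falling genes also dropped by over 1.5 times without *Bmal1* cKO mouse 1 (2389) and control mouse 1 (2380). Leaving out a mouse moved no member's fold by over 1.46 times, the most being that of *Cldn4*. Scaling to library totals moved the median log2 fold change from -0.04 to -0.26 and gave 3091 rising and 4885 falling genes, 38.8% rising in place of 51.2%. EdgeR called 3861 and 3812, and DESeq2 3719 and 3803. The replicate numbers pair nothing known (correlation of deviations -0.09), and the replicate block gave 3899 rising and 3789 falling genes and the same 10 and 19 partner gene counts. With the longest transcript as length, an alternative chosen after seeing the data, the *Cldn8* share differed by 23.9 percentage points and that of *Cldn3* by -17.8. With 2 mice per group no exact test can reach the threshold.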

Other observations

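Of 12 crypt base and cycling genes, 5 rose and 2 fell in *Bmal1* cKO by limma, with a median log2 fold change of -0.03 (41.7% and 16.7%, beside 29.0% and 27.7% of all tested genes). Fewer of these 12 genes fell without either cKO mouse or control mouse 2, and more fell without control mouse 1. Their summed normalized count was 20742 and 23644 in control mice against 38958 and 38615 in cKO mice. Most of that difference came from *Slc12a2*, a chloride cotransporter of crypt cells (5411 and 6593 against 17790 and 19013), and *Top2a*, a cell cycle gene (4981 and 4653 against 9722 and 8528). The stem cell gene *Lgr5* had 24.5 and 76.2 normalized counts in control mice against 275 and 339 in cKO mice, whereas *Ascl2*, another gene of crypt base stem cells, fell from 54.9 and 135 to 16.5 and 29.7. With the correction for GC content and length *Lgr5* remained past the threshold (log2 fold change 2.18), while *Ascl2* (-0.61) and *Top2a* (0.17) did not. In that setting 4 of the 12 genes rose and 1 fell (33.3% and 8.33%, beside 17.8% and 18.0% of all genes). Of 12 surface colonocyte genes 4 rose and 2 fell (33.3% and 16.7%, beside 29.0% and 27.7% of all tested genes), with a median of 0.11. Their sums of 100186 and 137010 against 112560 and 122089 overlapped. With the correction 33.3% rose and 8.33% fell, beside 17.8% and 18.0% of all genes. Without either cKO mouse fewer of them rose and fewer fell, as was so for all tested genes. *Slc26a3*, the chloride and bicarbonate exchanger of surface cells, rose from 2200 and 4707 to 13157 and 15104, and *Car4*, a carbonic anhydrase of the same cells, fell from 5432 and 10492 to 1585 and 2328. These genes were named after their values were seen, and the part of crypt position in the claudin differences was not tested.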
